A study of Mus musculus with 16 samples.

Results

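VSM_21 is a small cluster of cells that the authors named among the smooth muscle cells of mouse brown adipose tissue. Its members are all cells with that cluster name in the authors' table of named cells: 337 of 12372 cells in the 10 VSM clusters, of 24352 named cells and of 109723 cells in the series. VSM was read as vascular smooth muscle, a term in the series title. All mice were C57BL6J, and interscapular brown fat was digested, freed of the floating adipocytes, of red cells and of dead cells, and profiled by droplet single-cell RNA sequencing. Housing was at 30 °C (thermoneutral, where the tissue need not make heat), at 22 °C (room temperature), or at 5 °C, where exposure lasted either 2 or 7 days, with 4 libraries for each. One of the submitters' descriptions gives a stay of 1 week for 30 °C and another gives it for 22 °C. The sources used here do not say how many mice went into a library, and p-values then measure only the spread between these libraries. Replicate 1 of 2-day cold has no named cells, which leaves 15 libraries with VSM_21 cells.

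Vascular smooth muscle cells form the contractile coat of arteries and veins, while pericytes wrap capillaries, and both belong to the mural cells of the vessel wall. Brown adipose tissue is densely supplied with vessels and remodels them when heat is called for, and the series title concerns adipocyte progenitors derived from smooth muscle that express Trpv1, a heat- and capsaicin-gated ion channel. Acta2 (smooth muscle actin) and Myh11 (smooth muscle myosin heavy chain) mark contractile smooth muscle in general, and pericytes may carry some of the first. Gene values were not analysed here, so the name VSM_21 was not checked against Acta2, Myh11 or Trpv1, and the cells are described by their number, depth, phase calls and cluster numbers. Libraries held 1473 to 10005 cells, and 0 of the 337 VSM_21 barcodes occurred in a second library among VSM_21 cells, while 14 also occurred in another library on a cell of any kind. Over all cells 1537 of 108170 distinct barcodes occurred in more than 1 library. A shared barcode counts once there, while the 14 of 337 go by VSM_21 cell, so the 2 parts are unlike and were not compared. The cause of the shared barcodes was not tested. Median UMIs per cell were higher in replicates 1 and 2 than in replicates 3 and 4 of the same housing in all 4 groups, so changes are also given within these pairs of replicate numbers.

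VSM_21 made up a growing part of the cells in VSM clusters from warm to cold housing. At 30 °C it was 1.30%, 1.36%, 0.839% and 0.838% of VSM cells in replicates 1 to 4, from 26, 3, 8 and 15 cells. At 22 °C it was 1.196%, 1.41%, 2.30% and 2.16%, from 11, 28, 26 and 3 cells. The ranges of these 2 groups overlap. After 2 days at 5 °C it was 3.75%, 4.79% and 4.53% in replicates 2 to 4, from 35, 33 and 33 cells, and each of these libraries lay above every library at 30 °C or 22 °C. After 7 days at 5 °C it was 14.0%, 19.3%, 8.43% and 7.58%, from 28, 57, 21 and 10 cells. Every 7-day library lay above every 2-day library, and replicates 1 and 2 lay above replicates 3 and 4. The means were 1.08% ± 0.283 (SD, n = 4), 1.77% ± 0.544 (n = 4), 4.35% ± 0.542 (n = 3) and 12.3% ± 5.43 (n = 4). Single-library shares rest on few cells: the 95% Wilson interval, which covers counting error only, ran from 0.463% to 3.91% for the 3 cells of replicate 2 at 30 °C and from 15.2% to 24.1% for the 57 cells of replicate 2 of 7-day cold.

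**Figure D1:**
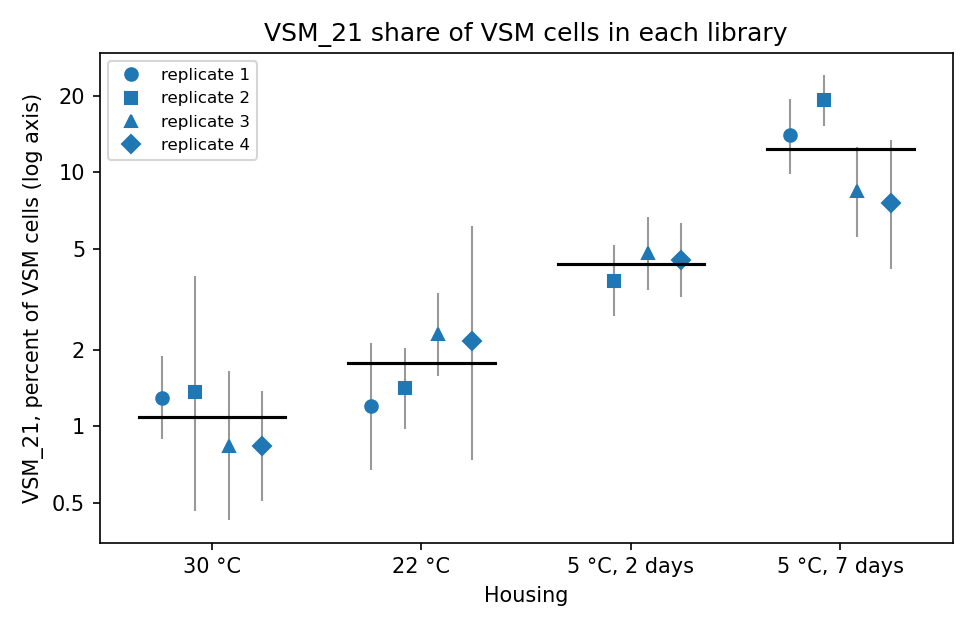
VSM_21 cells as a percent of all VSM cells (log axis) in each of 15 libraries by housing; marker shapes give the replicate number, grey bars 95% Wilson intervals and black lines group means. The 7-day libraries sit between 7.58% and 19.3%, all above the 2-day libraries at 3.75% to 4.79%.

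The shares were tested on the log2 odds scale with limma, over the 10 VSM clusters and with 4 groups in one fit. VSM_21 was higher in 7-day cold than at 30 °C by 3.55 ± 0.40 (log2 odds ratio ± SE, an odds ratio of 11.7, limma adjusted p = 3.63e-06), the 1 cluster of 10 (10%) that passed in that comparison. It was also higher in 7-day cold than at 22 °C, by 2.87 ± 0.40 (limma adjusted p = 4.53e-05), where 2 of 10 clusters (20%) passed; the other one, VSM_22, was 6.83% against 1.96% of VSM cells. Against 30 °C it was higher in 2-day cold by 2.01 ± 0.43 (limma adjusted p = 0.00360; 1 of 10 clusters passed, 10%). It was higher in 7-day than in 2-day cold by 1.54 ± 0.43 (limma adjusted p = 0.0304; again 1 of 10, 10%). The estimate for 2-day cold against 22 °C was 1.32 ± 0.43 (limma adjusted p = 0.0833), and for 22 °C against 30 °C 0.69 ± 0.40 (limma adjusted p = 0.712); in both 0 of 10 clusters passed in limma, with 1 and 0 at an unadjusted p below 0.05. In edgeR the first of these passed, at 1.34 (adjusted p = 0.0420), and the second did not. The other 9 VSM clusters had estimates from -1.13 (VSM_1) to 1.66 (VSM_22) for 7-day cold against 30 °C, none past the threshold.

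Taken apart by replicate number, VSM_21 was higher in 7-day cold than at 30 °C by 3.77 in replicates 1 and 2 and by 3.34 in replicates 3 and 4, and both passed in limma. The estimate for 2-day cold against 30 °C was 1.43 in the former, where replicate 2 is the only 2-day library with named cells. It was 2.48 in the latter, which passed. The values for 22 °C against 30 °C did not hold one direction, at -0.11 within replicates 1 and 2 and 1.49 within replicates 3 and 4. The call of 7-day against 2-day cold was lost when any of 2-day replicates 2, 3 or 4 or 7-day replicates 1 or 2 was left out (limma adjusted p from 0.0717 to 0.147), and the estimate was 0.85 in cells of at least 2000 UMIs, a limit chosen after the depths had been seen.

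The denominator sets how these changes read. As a percent of all cells of a library, VSM_21 was 0.191% ± 0.0834 (SD, n = 4) at 30 °C and 0.293% ± 0.128 (n = 4) at 22 °C. After 2 days at 5 °C it was 0.350% ± 0.0281 (n = 3), and after 7 days 0.735% ± 0.627 (n = 4). The last mean was set by replicate 2, with 1.64%, since the other 7-day libraries held 0.245% to 0.679%. On this scale the estimate for 7-day cold against 30 °C was 1.66 ± 0.70 (limma over 27 named clusters, adjusted p = 0.110; 0 of 27 clusters passed, 0%, with 9 at an unadjusted p below 0.05, and VSM_21 passed in none of the 6 comparisons in limma). For 2-day cold against 30 °C it was 0.94 ± 0.76 (limma adjusted p = 0.463), where 2 of 27 clusters (7.41%) passed. As a share of named cells VSM_21 passed for 2-day cold against 30 °C, with 3 of 27 clusters (11.1%), for 7-day cold against 30 °C, with 10 of 27 (37%), and for 7-day cold against 22 °C, with 2 of 27 (7.41%). In 7-day cold the VSM cells themselves numbered 132 to 296 per library, against 221 to 2006 at 30 °C. A rise in VSM_21 cells and a loss of the other VSM cells from the suspension cannot be told apart from shares.

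VSM_21 cells did not stay together when the clustering was changed. The name was given at resolution 1.2 of the table of named cells, where cluster 21 is VSM_21 by definition. In the same table at resolution 0.1, 150 of the 337 cells shared cluster 5 with all 838 cells named Pericyte_12, and 180 were in cluster 0 with 12033 cells of the other VSM clusters. At resolution 0.4 the number with Pericyte_12 (cluster 7) was 200, at resolution 0.6 a cluster of 205 cells was made of VSM_21 alone, and at resolution 1 a cluster of 336 cells held 327 of them. At the finer resolutions of 1.4 and 1.8 the cells divided again: 244 and then 240 had a cluster of their own, and 86 went with VSM_1, VSM_7 and VSM_5 cells.

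In the authors' clustering of all 109723 cells no cluster corresponded to VSM_21. At all 8 resolutions 137 of the 337 cells (40.7%) had the number that holds every Pericyte_12 cell. At resolution 1.8 this was cluster 28, with 838 Pericyte_12 cells, 137 VSM_21 cells, 4 cells of other VSM clusters and 103 unnamed cells among its 1082. A further 84 cells (24.9%) were in cluster 51, a group of 237 cells that also held 101 cells of other VSM clusters. The remaining 116 were spread over 12 clusters, 31 of them in cluster 4, which is mostly VSM_1, VSM_5 and VSM_2, and 28 in cluster 40. At resolution 1.2 of that table, 92 VSM_21 cells shared cluster 22 with 880 cells that the authors named VSM-AP_6 and 273 cells of other VSM clusters. This company depended on the resolution: where names were grouped as VSM_21, other VSM, Pericyte, VSM-AP and all others, the VSM_21 cells in numbers with VSM-AP as the most common class were 71 at resolution 0.8 and 0 to 12 at the other 6 resolutions.

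**Figure D2:**
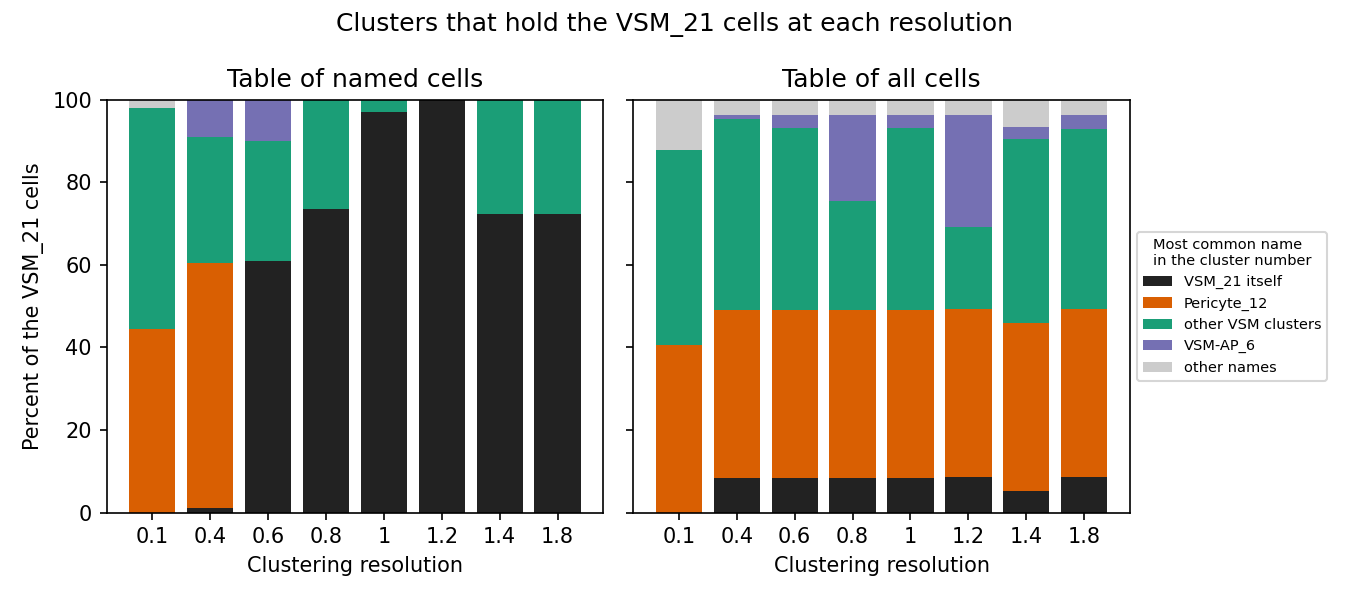
Percent of the 337 VSM_21 cells (vertical) by the most common class of name among named cells of the cluster number they fall in, at 8 clustering resolutions (horizontal), in the table of named cells (left) and of all cells (right). On the right the part that falls with Pericyte_12 is 40.7% at each resolution.

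Of the 12035 cells in the 9 other VSM clusters 4 were in cluster 28, against 137 of 337 for VSM_21. VSM_1 and VSM_3 had 96.9% and 97.3% of their cells in a single cluster of all cells. In the 7 others the largest part found in one number was 30.9% (VSM_20) to 79.2% (VSM_5). VSM_21 was spread over 14 numbers and the others over 5 to 9. Weighted by the cells in each number, however, VSM_20 with 343 cells was as scattered as VSM_21, with effective numbers of 4.17 and 4.03. These counts describe how the same cells fell in both clusterings and carry no test.

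The makeup of VSM_21 by these numbers differed between housing conditions. In 7-day cold 60.7%, 73.7%, 85.7% and 60% of the VSM_21 cells of replicates 1 to 4 were in cluster 28 with the Pericyte_12 cells, 83 cells in all. In 2-day cold the percentages were 37.1%, 21.2% and 6.06% in replicates 2 to 4, from 22 cells. At 22 °C they were 54.5%, 39.3%, 15.4% and 0%, from 21 cells, and at 30 °C they were 19.2%, 100%, 12.5% and 13.3%, from 11 cells. Every 7-day library lay above all others except replicate 2 at 30 °C, in which all 3 cells were in cluster 28. Cluster 51 held 23 of 52 VSM_21 cells at 30 °C, 27 of 68 at 22 °C, 24 of 101 in 2-day cold and 10 of 116 in 7-day cold.

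As a percent of all VSM cells, the part in cluster 28 was highest in 7-day cold, while the part outside it was high in both cold groups. The cells in cluster 28 were 0.456% ± 0.605 (SD, n = 4) of VSM cells at 30 °C, 0.390% ± 0.288 (n = 4) at 22 °C, then 0.894% ± 0.569 (n = 3) after 2 days and 8.62% ± 4.06 (n = 4) after 7 days at 5 °C. The VSM_21 cells outside cluster 28 were 0.627% ± 0.444, 1.38% ± 0.795, 3.46% ± 0.986 and 3.70% ± 1.98. For the latter, each 2-day library (2.36% to 4.25%) lay above every library at 30 °C or 22 °C (0% to 2.16%), while the 7-day libraries (1.205% to 5.50%) overlapped with them and with the 2-day libraries. The split was made after the cluster numbers had been seen, so these values were not tested. The 22 VSM_21 cells that 2-day cold had in cluster 40 included 19 of the 33 cells of its replicate 4. The shares given for that library, and its place above the warmer ones, thus rest in large part on cluster 40. This cluster is mostly replicate 1 of 2-day cold, with 403 of its 459 cells. Its cells had a median of 17.6% mitochondrial UMIs, and the VSM_21 cells in it 6.52%. Shares without cluster 40 were not tested.

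**Figure D3:**
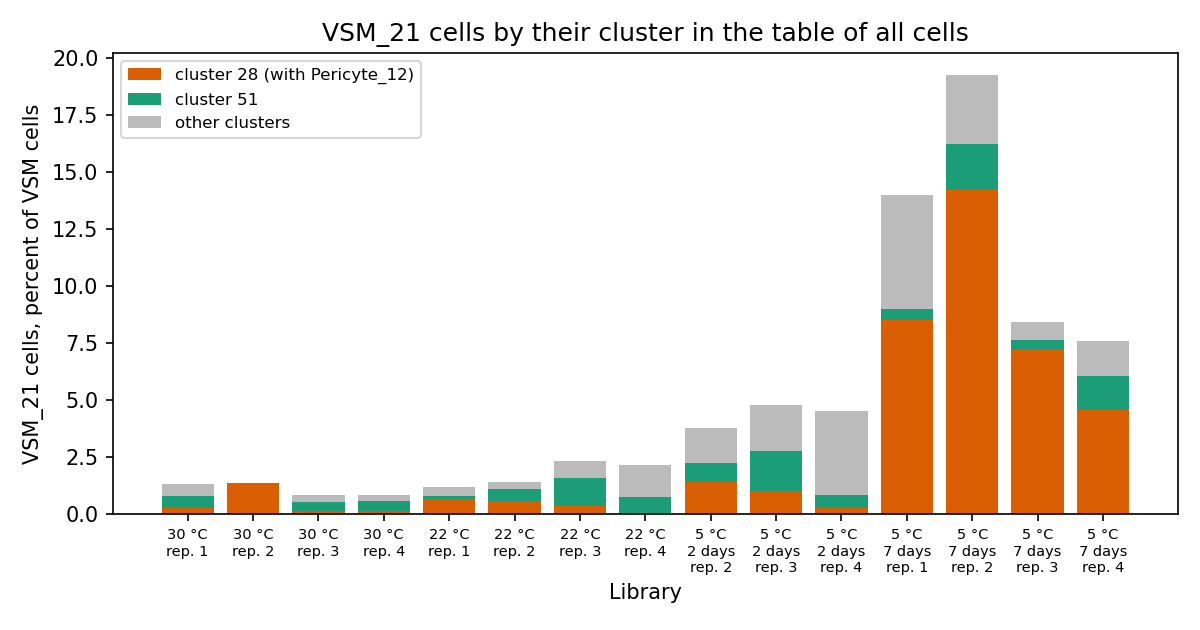
VSM_21 cells as a percent of VSM cells in each library, stacked by the cluster they have in the table of all cells at resolution 1.8. The part in cluster 28, which holds the Pericyte_12 cells, is 4.55% to 14.2% in the 7-day libraries and at most 1.39% elsewhere.

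Cluster 28 as a whole, most of whose cells are Pericyte_12, was tested as a share of all cells with 16 libraries, replicate 1 of 2-day cold included. It was 0.688% ± 0.611 (SD, n = 4) at 30 °C, 0.783% ± 0.553 (n = 4) at 22 °C, 0.676% ± 0.535 (n = 4) after 2 days at 5 °C and 2.60% ± 2.72 (n = 4) after 7 days. The 7-day libraries held 2.34%, 6.52%, 0.525% and 1.02%, so replicates 3 and 4 lay inside the range at 30 °C, 0.180% to 1.44%. The log2 odds ratio for 7-day cold against 30 °C was 1.86 ± 0.89 (limma adjusted p = 0.232; 0 of 55 clusters passed, 0%, with 8 at an unadjusted p below 0.05 and 0 of 55 past the threshold in edgeR). It also did not pass in the other comparisons, in which 5 of 55 clusters passed for 2-day cold against 30 °C (9.09%), 3 for 2-day cold against 22 °C (5.45%) and 1 for 7-day against 2-day cold (1.82%). Cluster 51 was 0.284% ± 0.213 (n = 4) of all cells at 30 °C and 0.113% ± 0.103 (n = 4) in 7-day cold, a log2 odds ratio of -1.58 ± 0.78 (limma adjusted p = 0.232). Within cluster 28 the numbers of VSM_21 and Pericyte_12 cells were 17 and 145 in 7-day replicate 1 and 42 and 179 in replicate 2. They were 18 and 19 in 7-day replicate 3 and 6 and 9 in replicate 4. VSM_21 was thus 10.5%, 19.0%, 48.6% and 40% of these cells in 7-day replicates 1 to 4, against 0% to 21.4% in the other 11 libraries, so that replicates 1 and 2 lay inside the range of the others and replicates 3 and 4 above it.

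VSM_21 cells were shallow next to the other VSM cells. Over all libraries their median was 3120 UMIs (quartiles 1661 and 6816) and 1457 genes, the lowest of the 10 VSM clusters, against 8675 UMIs and 2676 genes for the other VSM cells and 3497 UMIs and 1751 genes for Pericyte_12. The median UMI count per library was lower in VSM_21 than in the other VSM cells in 15 of 15 libraries. Against Pericyte_12 it was higher in 8 libraries and lower in 7. The mitochondrial share of UMIs, a measure that often rises in damaged cells, had a median of 4.94% in VSM_21, against 7.84% in the other VSM cells and 2.30% in Pericyte_12, and was lower than in the other VSM cells in 15 of 15 libraries. In VSM_21 0.890% of cells had 20% or more mitochondrial UMIs, against 0.316% of the other VSM cells (up to 3.58% in a single cluster, VSM_22) and 0% of Pericyte_12. Log10 of genes over log10 of UMIs per cell, a measure of how varied the RNA of a cell is, had a median of 0.901 in VSM_21, 0.870 in the other VSM cells and 0.913 in Pericyte_12. Depth differed between these sets, and its part in this ratio was not tested. At 2000 to 4000 UMIs median genes were 1352 in VSM_21, 1499 in the other VSM cells and 1537 in Pericyte_12. At 4000 to 8000 UMIs they were 2051, 2179 and 2341. Under 2000 UMIs they were 716.5, 696.5 and 966, and at 8000 or more 3439, 3232 and 3330. These are values of cells that were clustered on their own genes and carry no test.

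The parts of VSM_21 also differed in depth. The 137 cells in cluster 28 had a median of 1727 UMIs and 1.75% mitochondrial UMIs, the 84 cells in cluster 51 had 4386 UMIs and 5.68%, and the remaining 116 cells 6554 UMIs and 6.96%. The median UMI count of the cells in cluster 28 was thus below that of Pericyte_12 (3497), and those of the other parts lay between Pericyte_12 and the other VSM cells (8675).

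Among libraries of at least 5 VSM_21 cells, the lowest VSM_21 medians were in 7-day cold, the group in which the other VSM cells had their highest mean depth. Replicate 2 at 30 °C, with 3 VSM_21 cells, had a lower VSM_21 median, 1010 UMIs. In 7-day cold the library medians of VSM_21 were 2430, 2201, 1561 and 2230 UMIs, below all other libraries of at least 5 VSM_21 cells, which had 2960 to 6972. The other VSM cells had their highest mean in 7-day cold, 12868 ± 3445 UMIs (SD, n = 4), against 8039 ± 2703 (n = 4) at 30 °C. Single libraries overlapped between groups, with 13311 UMIs in replicate 1 at 22 °C and 8951 in 7-day replicate 3. Libraries at 5 °C were compared with libraries at 30 °C or 22 °C by exact permutation over libraries with at least 5 VSM_21 cells, 7 against 6, with 1716 assignments and p-values adjusted over 12 tests. Median UMIs of VSM_21 were 3115 ± 1798 (n = 7) and 4234 ± 1090 (n = 6), a difference of -1119 (exact permutation p = 0.217, adjusted 0.260). The gap to the other VSM cells of the same library was -8435 ± 3954 and -3931 ± 3334, a difference of -4504 (exact permutation p = 0.0571, adjusted 0.128). The gap in median genes was -1785 ± 772 and -783 ± 648, a difference of -1003 (exact permutation p = 0.0303, adjusted 0.108), and that in mitochondrial percent -5.13 ± 2.95 and -2.46 ± 1.91 (exact permutation p = 0.0758, adjusted 0.130). None of these 4 passed. With 2-day replicate 3 left out, median UMIs and median genes of VSM_21 passed as lower at 5 °C, with differences of -1762 UMIs and -542 genes (exact permutation, adjusted p = 0.0260 for both), and without replicate 1 at 22 °C the gaps in UMIs and genes passed (exact permutation, adjusted p = 0.0202 for both).

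**Figure D4:**
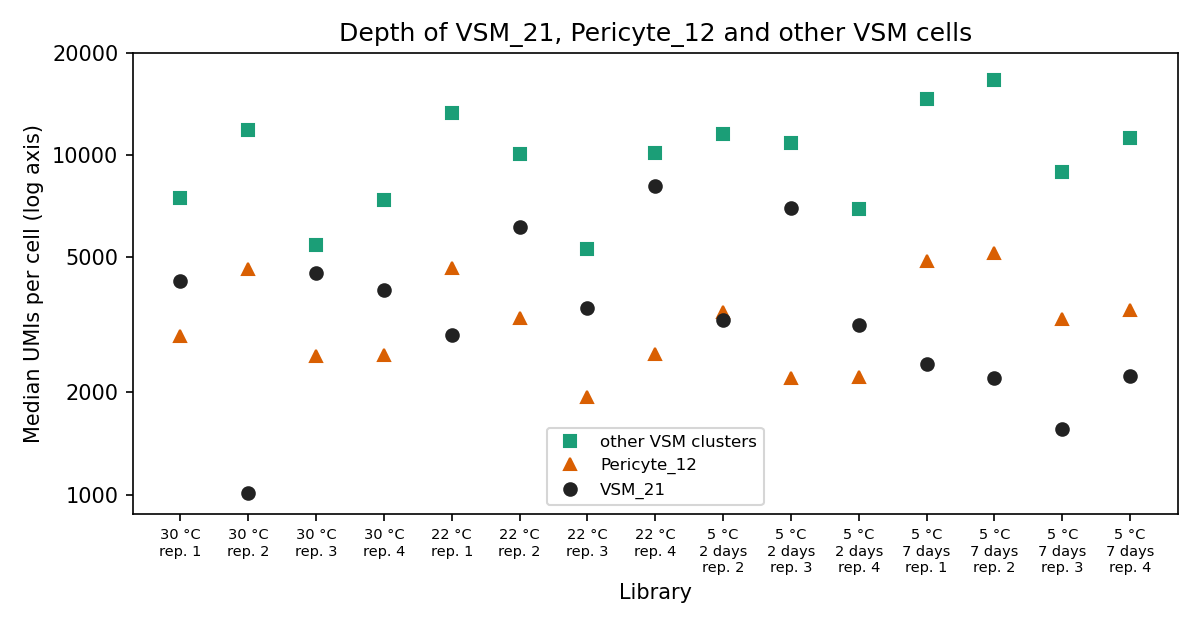
Median UMIs per cell (log axis) in each of 15 libraries for VSM_21 (circles), Pericyte_12 (triangles) and the other VSM clusters together (squares). VSM_21 lies below the other VSM clusters in every library, and in 7-day cold at 1561 to 2430 UMIs also below Pericyte_12.

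Phase calls assign each cell to G1, S or G2M from scores over genes of DNA replication and of mitosis. In the table of named cells 62.3% of VSM_21 cells were called S or G2M (36.5% S and 25.8% G2M), against 54.9% of the other VSM cells and 63.0% of Pericyte_12. In the table of all cells, where scores were computed anew, 25.5% of the same VSM_21 cells were called S or G2M, against 6.17% and 20.6%. The 2 tables gave the same phase to 212 of the 337 cells (62.9%), and 63 cells called S and 61 called G2M among named cells were G1 among all cells. In the table of all cells VSM_21 was above the other VSM cells in 15 of 15 libraries, and in the table of named cells in 11 of 15. In each of the 2 tables VSM_21 was above Pericyte_12 in 6 libraries and below it in 9. Ranked within each of the 13 libraries with at least 5 VSM_21 cells, among VSM clusters of at least 5 cells, it was highest in 11 libraries in the table of all cells. In the table of named cells it was highest in 6, the 4 libraries of 7-day cold among them, and its rank went down to 8 in replicate 2 at 22 °C.

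Phase calls varied with depth, and the counts needed to thin the cells to one depth were not analysed here, so the calls were set side by side within windows of UMIs. Cells of all libraries and housing conditions were pooled in each window, so differences between libraries were not removed. In the table of all cells the part called S or G2M in VSM_21 fell from 34.3% of 102 cells under 2000 UMIs to 28.3% of 99 cells at 2000 to 4000, 18.6% of 70 cells at 4000 to 8000 and 15.2% of 66 cells at 8000 or more. In the other VSM cells it fell from 24.2% of 124 cells to 16.7% of 478, 9.36% of 4688 and 2.86% of 6745. In Pericyte_12 it fell from 33.7% of 83 cells to 26.4% of 421, 11.1% of 297 and 2.70% of 37. VSM_21 was thus above the other VSM cells in each window, by 9.21 to 12.3 percentage points, against 19.4 over all cells. In the table of named cells the order was not the same in each window: 66.7% of VSM_21 against 53.2% of the other VSM cells under 2000 UMIs, 57.6% against 64.6% at 2000 to 4000, 72.9% against 61.8% at 4000 to 8000 and 51.5% against 49.5% at 8000 or more.

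Between housing conditions, the share of VSM_21 cells called S or G2M was 61.2% ± 7.70 (SD, n = 7) at 5 °C and 65.0% ± 6.59 (n = 6) at 30 °C or 22 °C in the table of named cells (exact permutation p = 0.360, adjusted 0.360). The mean S score was 0.0178 ± 0.0153 and 0.0107 ± 0.00770 (exact permutation p = 0.325, adjusted 0.355). The G2M score of VSM_21 was 0.0390 ± 0.0676 at 5 °C and -0.00740 ± 0.00824 in the warmer libraries, a difference of 0.0464 (exact permutation p = 0.0361, adjusted 0.108). The cold mean was set by 7-day replicates 1 and 4, at 0.152 and 0.122. The other cold libraries, with all of 2-day cold among them, had -0.00821 to 0.00600, and the warmer ones -0.0177 to 0.00384. The gap in G2M score to the other VSM cells of the same library was 0.0730 ± 0.0723 (n = 7) and 0.00185 ± 0.00812 (n = 6). The other VSM cells themselves had lower G2M scores in the cold, -0.0340 ± 0.00983 (n = 7, from -0.0452 to -0.0213) against -0.00924 ± 0.00271 (n = 6, from -0.0126 to -0.00486), while the scores of VSM_21 itself overlapped. Of the difference in the gap, 0.0464 was thus the difference in VSM_21 and the remainder that in the other VSM cells, whose depth also differed between these libraries; the part of depth was not tested. The difference of 0.0712 in the gap passed (exact permutation p = 0.00117, the smallest these assignments can give, adjusted 0.0140), with all 7 cold libraries above all 6 warmer ones. The cells were clustered on their own genes. The test therefore cannot tell a change within cells from a change in which cells were placed in VSM_21. When the libraries with 3 VSM_21 cells were also entered, the difference in the gap was 0.0640 and did not pass (exact permutation p = 0.0249, adjusted 0.298). The gaps in S score, at 0.0133 (adjusted 0.128), and in the share called S or G2M, at 18.2 percentage points (adjusted 0.108), did not pass by exact permutation.

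The mean G2M score in the cold rested on few cells. A score above 0.3, a limit chosen after the scores had been seen, was reached by 8 of the 337 VSM_21 cells, by 1 of the 12035 other VSM cells and by 0 of 838 Pericyte_12 cells, which allows up to 0.358% of Pericyte_12 cells by counting error. All 8 were in cold libraries: 4 in replicate 1 and 1 in replicate 4 of 7-day cold, and 1 in each of replicates 2, 3 and 4 of 2-day cold. The 120 VSM_21 cells at 30 °C and 22 °C held 0, against 8 of the 217 cells at 5 °C, and 120 cells are too few to exclude such cells there. The 8 cells had a median of 15032 UMIs, above the median of each VSM cluster, had scores above 0.3 in the table of all cells too, and lay in 5 different clusters of that table. Without them the mean G2M score of VSM_21 was -0.0117 ± 0.0106 (SD, n = 7) at 5 °C and -0.00740 ± 0.00824 (n = 6) in the warmer libraries. The gap to the other VSM cells, without the cells above 0.3 in either set, was 0.0233 ± 0.0167 (n = 7) and 0.00185 ± 0.00812 (n = 6), a difference of 0.0214 in place of 0.0712, and the groups then overlapped. The median score per library of VSM_21 averaged -0.0147 ± 0.00697 and -0.0101 ± 0.00853. Doublets were not called, and their part in these 8 cells was not tested.

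**Figure D5:**
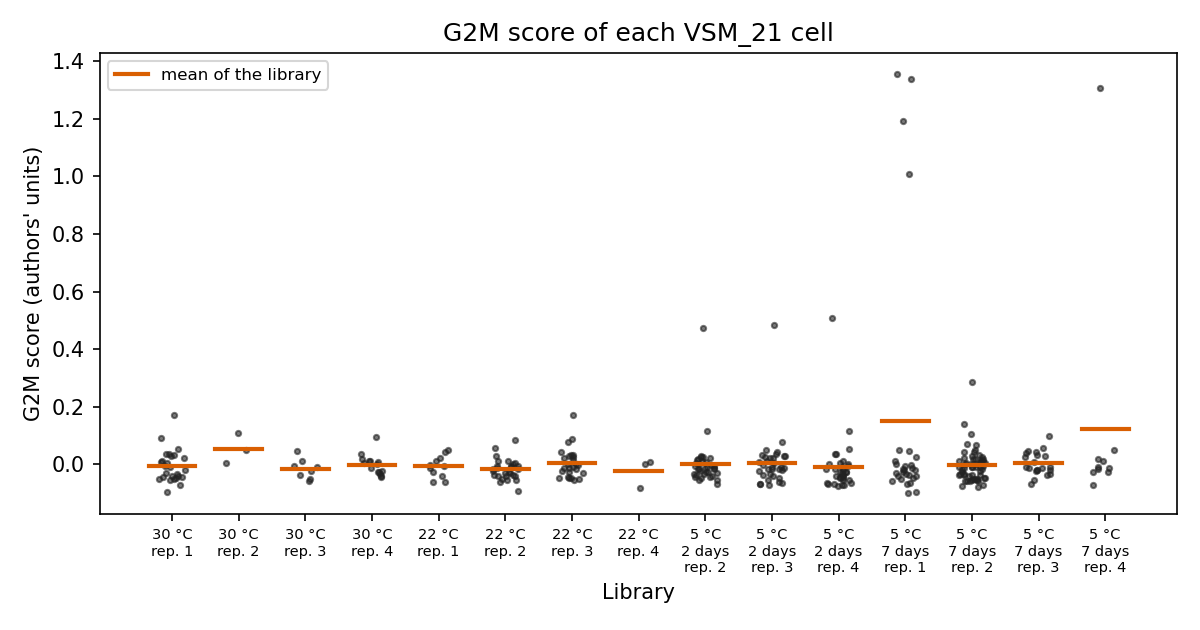
G2M score of each of the 337 VSM_21 cells (points) by library, with the mean of each library as a line. The 8 cells above 0.3 are all in libraries at 5 °C, 4 of them in replicate 1 of 7-day cold.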

How the data were processed

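The files used were the authors' 2 tables of cells. Reads had been processed with STAR and Cell Ranger 3.0.1 on build mm10, per the submitters' processing notes. How cells were filtered, integrated and clustered is not stated in these sources. UMI and gene counts per cell were deposited by the authors without normalisation, the mitochondrial fraction on a scale from 0 to 1 (given here in percent), and S and G2M scores, phase calls, cluster numbers and cluster names as they stand. Also deposited was a ratio per cell, log10 of genes over log10 of UMIs.

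Cells were assigned to libraries by the library name, which equals a label of each sample. VSM cluster shares, with 0.5 cells added to the cluster and the rest, were fitted on the log2 odds scale with limma 3.58.1 in R 4.3.3 (clusters averaging 10 or more cells a library; Benjamini-Hochberg within a contrast; threshold 0.05; two-sided), and with edgeR 4.0.16 as an alternative. Cell measures used two-sided exact permutation tests. The limma and permutation steps were tested on simulated data. The members and the comparisons were chosen with earlier results of these data known. Every VSM cluster, and cluster numbers holding at least 10% of VSM_21 cells, could be named; clusters 4 and 40, below that, were named after their values were seen. Same-numbered replicates are not stated to share an animal or day, and did not deviate together throughout (correlation above 0.1 in 14 of 21 pairs over VSM clusters), so they were not treated as pairs.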

Additional observations from a re-analysis of the deposited data

Results flagged for a closer look

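The difference in G2M score between VSM_21 and the other VSM cells changed with cold by 0.0712 (exact permutation, adjusted p = 0.0140), which means that the change with cold differed between the 2 sets of cells. These sets come from clustering on the cells' own genes. The test cannot tell a change within cells from a change in which cells were placed in VSM_21. VSM_21 itself changed by 0.0464 and the other VSM cells by -0.0248, and without the cells above 0.3, of which 8 were VSM_21 cells, the change in the gap was 0.0214. Without these 8 cells the mean score of VSM_21 was -0.0117 at 5 °C and -0.00740 in the warmer libraries, so VSM_21 itself no longer rose. With all cells, the change in the gap was 0.0862 among replicates numbered 1 or 2, and 0.0596 among those numbered 3 or 4. Replicate 2 at 30 °C stood apart from the other 30 °C libraries in depth, with a median of 1010 UMIs over its 3 VSM_21 cells. It was 1 of 21 sets of libraries examined for an outlying library, of which chance alone flags about 1 in 20, and it was left out of the tests of cell measures because it held fewer than 5 VSM_21 cells.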

How the results depend on the processing

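The rise of VSM_21 among VSM cells in 7-day cold against 30 °C and against 22 °C lost its call in 1 of 32 alternatives each, that of 2-day cold against 30 °C in 3 and that of 7-day against 2-day cold in 13; none of these 4 changed direction, and for each loss the cause was not tested. As a share of all cells the estimates were 0.94 (2-day against 30 °C), 1.66 (7-day against 30 °C), 1.05 (7-day against 22 °C) and 0.72 (7-day against 2-day), none past the threshold. For 2-day cold against 30 °C the call was also lost on the arcsine scale (0.106) and within replicates 1 and 2 (1.43). In the latter, replicate 2 is the only 2-day library with named cells. For 7-day against 2-day cold it was lost as a share of named cells (1.08), with centred log ratios (1.35), with TMM scaling in edgeR (1.34), within replicates 3 and 4 (0.86), in cells of at least 2000 UMIs (0.85) and in cells at or above the median VSM depth without a minimum of cells (0.30), the last 2 added after seeing the data; leaving out 1 library gave 1.26 to 1.76. With the minimum kept, VSM_21 had too few cells at or above that depth to be tested. For 2-day cold against 22 °C, edgeR (1.34) and replicates 3 and 4 (1.00) passed. For 22 °C against 30 °C, replicates 1 and 2 gave -0.11 and replicates 3 and 4 passed at 1.49. Counts of called VSM clusters ranged from 0 to 3 for 7-day cold against 22 °C (2 in the report), from 0 to 2 for 7-day against 30 °C and 7-day against 2-day cold (1 each), and from 0 to 1 in the others; among clusters of all cells they ranged from 0 to 8 in 7-day against 2-day cold (1 in the report), 2 to 7 in 2-day cold against 30 °C (5), 0 to 5 in 2-day cold against 22 °C (3), 0 to 3 in 7-day cold against 30 °C (0) and 0 to 2 in 7-day cold against 22 °C (0).

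Cluster 28 passed in no alternative; its sign changed for 2-day cold against 30 °C in edgeR (-0.0175) and without single libraries (-0.23 to 0.77), for 2-day cold against 22 °C under 20% mitochondrial UMIs (0.0806) and without single libraries (-0.67 to 0.20), and for 22 °C against 30 °C without single libraries (-0.0246 to 0.97). The gap in G2M score lost its call with libraries of any number of VSM_21 cells (0.0640), and within replicates 1 and 2 (0.0862) and 3 and 4 (0.0596), where 6 or 7 libraries cannot reach the threshold after adjustment; leaving out 1 library gave 0.0513 to 0.0812. With scores of the table of all cells the G2M score of VSM_21 (0.0550) and the gap in S score (0.0313) passed, and the share called S or G2M reversed to 5.28 points, not past the threshold. Means in place of medians reversed the UMI difference to 628, and replicates 1 and 2 the S score difference to -0.00270, neither past the threshold. Leaving out 1 library gave -1762 to -734 for UMIs, -5788 to -3504 for the UMI gap, -542 to -278 for genes, -1251 to -817 for the gene gap and 15.7 to 22.3 points for the gap in the share called S or G2M, which passed without 2-day replicate 4; the gene gap passed without 2-day replicate 3 or replicate 1 at 22 °C.

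With replicate number as a block, the estimate for 7-day against 2-day cold stayed at 1.54 and lost its call (limma adjusted p = 0.0766), and the gaps in UMIs (-4965), genes (-1086) and S score (0.0165) passed (exact permutation within replicate numbers, adjusted p = 0.0370 each); the block changed no other call of VSM_21 or cluster 28. Of 15 libraries 4 correlated best with a library of their own number over the VSM clusters. The 3 to 57 VSM_21 cells per library limit every share and median given here.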
